A study of Mus musculus with 20 samples.

Results

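The transcripts described here had fewer footprints in the capture of RPL22-containing ribosomes than in total ribosomes of the same cells, while their footprints in the captures of RPL10A- and RPS25-containing ribosomes stayed near the total. They were chosen by 3 log2 ratios of mean IP to mean total RPKM, with 1 added to each mean: an RPL22 ratio at or below −0.4, an RPL10A ratio within 0.6 of 0 and an RPS25 ratio within 0.5 of 0. Of 7263 transcripts measured in all 3 capture experiments and in RNA-seq, 171 met the rule. In the RPL22 table itself 283 of 8588 transcripts (3.30%) were at or below −0.4. Of these, 56 were not in every other table and 56 more had an RPL10A or RPS25 ratio outside its bounds. No filter on low values was applied, so all 171 entered every comparison below.

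A ribosome joins a small subunit, which reads the mRNA, to a large subunit, which makes the peptide bond. RPL22 and RPL10A are proteins of the large subunit and RPS25 is one of the small subunit. Vertebrates also carry a close paralog of RPL22, RPL22L1, and RPS25 is known for its role in initiation at some viral internal ribosome entry sites. An mRNA that carries many ribosomes sediments deep in a sucrose gradient, in heavy polysomes, and an mRNA with few or no ribosomes stays near the top.

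All samples came from E14, a line of pluripotent mouse embryonic stem cells, and all received 100 µg/ml cycloheximide, which arrests elongating ribosomes, for 1 min before harvest. Ribosome footprints came from 3 lines with 1 tagged allele at the endogenous locus: Rpl22-3xHA, captured with an anti-HA antibody, and 3xFLAG-Rpl10a and Rps25-3xFLAG, both captured with anti-FLAG M2 beads. Each line had 2 total and 2 IP libraries. RNA-seq of gradient fractions used wild-type cells transfected with a control siRNA or an siRNA against Rpl10a, with 2 libraries for each siRNA and pool. Fractions in which an mRNA carries 4 ribosomes or more made up the heavy pool. Everything above them in the gradient, from free particles to polysomes of 3 ribosomes, made up the light pool. The labels do not give the number of clones per line, and they list the anti-HA antibody for the total libraries of the Rpl22-3xHA line too, although the titles call these total. Whether that entry is right cannot be told from the sources used here, and every RPL22 ratio below takes the titles at their word.

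The transcripts carry UCSC identifiers, none of which was found in the reference tables (0 of 9498), so no gene names, sequences or gene lists are given, and neither the level of Rpl10a nor stem cell markers were analysed here. Summed values lay between 1082511 and 1201737 RPKM in the Ribo-Seq libraries, and between 943664 and 1067209 in the RNA-seq libraries, whose files call the unit RPM. Read depth is unknown. Replicates correlated on the log2 scale with Pearson r from 0.973 to 0.995 over all transcripts, and from 0.952 to 0.990 over the 171. Nothing in the labels says whether 2 replicates came from separate cultures. The spread behind each p-value is therefore that between these libraries and may be technical.

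In the RPL22 experiment the 171 transcripts had a lower footprint density in captured than in total ribosomes. Their median stood at 17.9 and 16.6 RPKM in the 2 total libraries and at 12 and 12.5 RPKM in the 2 IP libraries. Together they held 0.497% and 0.479% of all RPKM in the total libraries and 0.305% and 0.354% in the IP libraries. The RPL22 ratio ran from −0.75 to −0.40, with a median of −0.45, so most members sat close to the threshold. The 2 members just inside it had ratios of −0.4009 and −0.4007, at 25.7 and 26.3 RPKM in total against 18.9 and 20.0 in IP for the one, and 154.0 and 163.6 against 111.5 and 128.6 for the other. The 2 transcripts just outside had ratios of −0.3999 and −0.3996, at 9.0 and 8.0 against 5.7 and 6.7 RPKM, and at 5.1 and 5.3 against 3.4 and 4.0 RPKM. Both IP libraries lay below both total libraries for 167 of the 171. The background for this is 31.4% of all transcripts in the RPL22 table, and the rule used the same libraries, so nothing is read from it.

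The 2 RPL22 IP libraries contributed unequally. Taken alone, the first IP library gave a median member ratio of −0.55 and the second −0.38, and the first was the lower one for 142 members (83.0%). Over all 7263 transcripts the first was lower in 52.2%. At the same threshold of −0.4, 161 members passed by the first IP library alone, 70 by the second alone and 60 by each of them. Chosen without the first IP library the rule would give 115 transcripts, 70 of them among the 171. Without the second IP library it would give 472, and without the first or second total library 192 or 283. Membership thus leans on the first IP library.

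**Figure D1:**
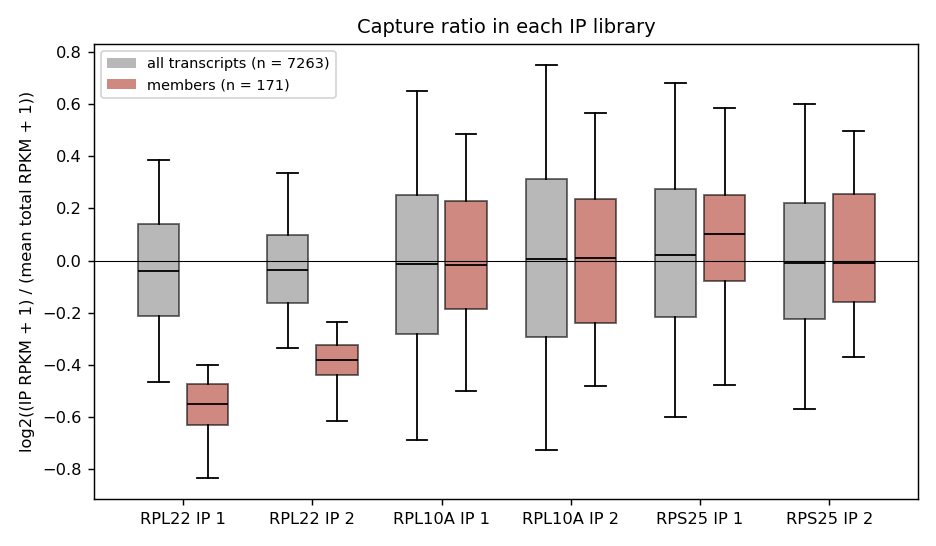
Log2 ratio of each IP library to the mean of the 2 total libraries of its line, for all 7263 transcripts (grey) and the 171 members (red). Boxes span the quartiles with the median as a line, and whiskers the 5th to 95th percentile. The members sit lower in RPL22 IP 1 (median −0.55) than in RPL22 IP 2 (−0.38), and close to all transcripts in the other 4 libraries.

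Among members with a total level at or above the members' median, uc009bft.2 had the lowest RPL22 ratio, −0.75. It measured 32.2 and 33.8 RPKM in total and 16.8 and 21.6 RPKM in captured ribosomes. In the other lines it measured 82.4 and 81.3 RPKM in total against 113.7 and 65.1 in the RPL10A IP, and 79.3 and 86.5 against 77.0 and 96.0 in the RPS25 IP. The 2 RPL10A IP libraries disagreed for this transcript, 1 lying above and 1 below both totals. uc009oty.1 followed with a ratio of −0.68, at 124.5 and 113.6 RPKM in total and 64.6 and 83.3 RPKM in the RPL22 IP. Its totals were 188.9 and 187.9 RPKM in the RPL10A line, against 165.6 and 197.1 in the IP, and 180.1 and 174.2 in the RPS25 line, against 193.2 and 200.9. These values are a description, as they chose the members.

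In the other captures the members spread around 0, as the bounds require. The RPL10A ratio had a median of −0.01, with 86 below and 84 above 0, and the RPS25 ratio a median of 0.08, with 67 below and 102 above 0. The bounds still admit some depletion: 11 members had an RPL10A ratio and 4 an RPS25 ratio at or below −0.4, 14 members in all, and 43 had all 3 ratios below 0. A stricter core of 56 members had RPL10A and RPS25 ratios both within 0.2 of 0. The name "RPL22 only" therefore describes the bounds rather than an absence of change elsewhere.

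The members' level in total ribosomes also differed between the lines. Relative to the mean total of the 2 FLAG lines, the members' level in the Rpl22-3xHA total had a median difference of −0.17 on the log2 scale, and 60 of 171 (35.1%) were above 0. Over all transcripts the median was −0.04, with 47.3% above 0. In the RPL22 IP the members' median difference from the FLAG totals was −0.65, and 159 of 171 (93.0%) were below 0. Over all transcripts the median was −0.07, with 54.7% below 0. The rule chose the members by low values in these IP libraries, so nothing is read from this. The members' share of all RPKM was 0.610% to 0.649% in the 4 FLAG total libraries and 0.623% to 0.697% in the 4 FLAG IP libraries, above the 0.497% and 0.479% of the Rpl22-3xHA totals. Each line has its own table, scaled on its own, and the Rpl22-3xHA experiment also had its own tag, antibody and lysis buffer, so the line and the procedure cannot be told apart here.

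The members were less densely footprinted than most transcripts. Their mean total level in the Rpl22-3xHA line had a median of 16.9 RPKM and ran from 5.15 to 656 RPKM, against a median of 28.4 RPKM for all transcripts, and 47 of them (27.5%) lay under 10 RPKM against 17.7% of all. By mean RNA-seq level, 37, 42, 34, 39 and 19 members fell into the quintiles of all transcripts from lowest to highest, so the highest quintile held 11.1% of them.

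The RNA-seq libraries played no part in choosing the members beyond being measured there, so they were tested. The first question was where the mRNAs sit in the gradient with control siRNA. Far more members were called light than heavy, 85 against 9 of 171, that is 49.7% and 5.26% (limma, Benjamini-Hochberg adjusted p below 0.05). Over all 8084 transcripts 26.4% were called light and 28.0% heavy. The members' median heavy-minus-light difference was −0.48 on the log2 scale (quartiles −0.88 and −0.06), against −0.04 for all transcripts, and 137 of 171 (80.1%) were below 0 against 52.1%. The share called in either direction, 55.0%, was close to the background of 54.4%, so the members stood out in direction and not in how many were called.

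The single libraries showed the same. The members' median value was 51.6 and 49.4 in the control light libraries and 35.9 and 37.8 in the control heavy libraries (deposited RPM values), while that of all 7263 transcripts was 50.6 and 50.9 in light and 50.3 and 50.9 in heavy ones. The members made up 1.41% and 1.32% of the light libraries' totals and 0.890% and 0.885% of the heavy libraries'. Over the 4 possible pairs of 1 heavy and 1 light library, the members' median difference ran from −0.53 to −0.44 and that of all transcripts from −0.04 to −0.02. The 2 groups of libraries thus did not overlap in the members' median or in their share. Values are relative within a pool, so the amount of mRNA in each pool was not measured.

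**Figure D2:**
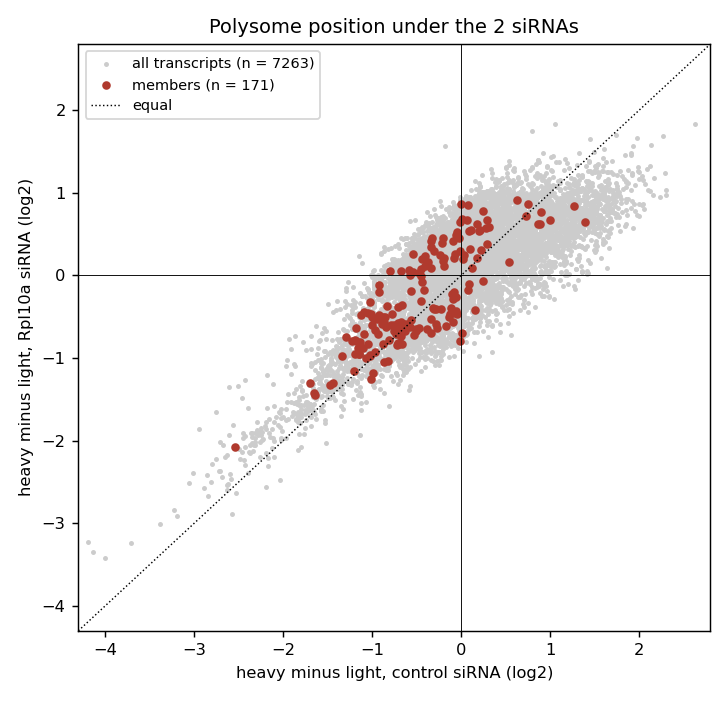
Heavy-minus-light difference (log2) of each transcript with control siRNA (x axis) and with Rpl10a siRNA (y axis), for all 7263 transcripts (grey) and the 171 members (red); the dotted line marks equal values. Most members lie left of 0 on the x axis (137 of 171) and below 0 on the y axis (110 of 171).

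The members' distance from all transcripts was widest at high RNA-seq level. In the lowest quintile of RNA-seq level the members' median was −0.20 and that of all transcripts −0.19. In the 3 middle quintiles the members stood at −0.54, −0.43 and −0.58 and all transcripts at −0.10, −0.05 and 0.16. In the highest quintile the 19 members had a median of −0.82 (quartiles −1.01 and −0.38) against 0.27. The members' median thus lay below that of all transcripts by little in the lowest quintile and by more in each of the others. Split by footprints, members under 10 RPKM had a median of −0.57 against −0.32 for all such transcripts, and those at 10 RPKM or more −0.42 against 0.07. The 60 members past −0.4 in each RPL22 IP library had a median of −0.41, with 28 called light, and the other 111 had −0.51, with 57 called light. Chosen without the first RPL22 IP library, 44 of 115 transcripts were light (38.3%) and 13 heavy, and without the second, 188 of 472 (39.8%) and 75. Without the second total library the counts were 112 of 283 (39.6%) and 41.

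**Figure D3:**
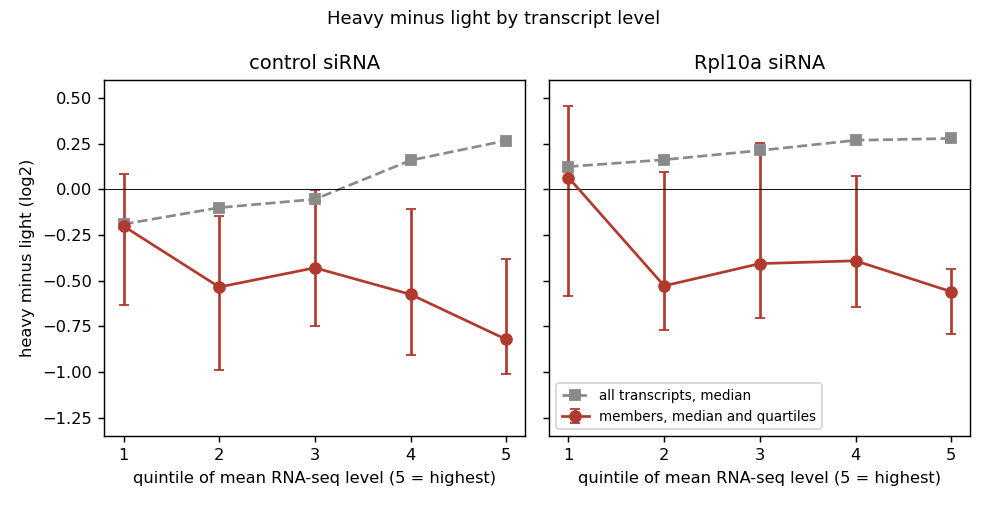
Median heavy-minus-light difference (log2) by quintile of mean RNA-seq level, with control siRNA (left) and Rpl10a siRNA (right), for members (red, bars give the quartiles over members) and all transcripts (grey squares). The lines start close together in the lowest quintile and lie apart in the other 4, by −0.82 against 0.27 in the highest with control siRNA.

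The members farthest on the light side among the more abundant ones were uc008uzj.2 and uc007ija.2. uc008uzj.2 measured 141.6 and 128.8 in the control light libraries and 24.0 and 20.9 in the heavy ones, a log2 difference of −2.54 (SE 0.15, limma adjusted p = 1.1e-05). uc007ija.2 measured 177.5 and 149.7 in light and 51.5 and 50.9 in heavy libraries (log2 difference −1.65, SE 0.14, limma adjusted p = 3.35e-05). Both were higher in each light library than in either heavy one, and with Rpl10a siRNA too: uc008uzj.2 at 77.2 and 62.3 against 16.0 and 15.5, and uc007ija.2 at 102.0 and 84.4 against 32.9 and 34.8. In the Rpl22-3xHA line the footprints of uc008uzj.2 were sparse, at 8.2 and 10 RPKM in total and 6.2 and 5.4 in the IP. Those of uc007ija.2 were at 19 and 17.7 RPKM in total, above the members' median of 16.9, and at 11.3 and 15.8 in the IP. uc009oty.1, described above for its RPL22 ratio, was also light, at 232.1 and 219.2 against 84.4 and 99.1 (log2 difference −1.29, SE 0.12, limma adjusted p = 4.74e-05).

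The few exceptions sat on the heavy side. uc008kej.2 measured 187.9 and 180.5 in heavy and 80.0 and 60.5 in light libraries (log2 difference 1.39, SE 0.19, limma adjusted p = 0.000374). uc009qws.1 measured 97.5 and 89.4 in heavy and 45.3 and 47.6 in light libraries (log2 difference 0.99, SE 0.13, limma adjusted p = 0.000304). With Rpl10a siRNA uc008kej.2 stood at 127.8 and 119.9 in heavy against 94.2 and 66.2 in light libraries, and uc009qws.1 at 82.6 and 97.5 against 53.2 and 58.8. Each heavy library again lay above each light one. Their RPL22 ratios, −0.43 and −0.46, were near the members' median of −0.45. uc009bft.2, with the lowest ratio among the better measured members, was not called: it measured 290.0 and 307.0 in light and 239.7 and 349.6 in heavy libraries, which overlap (log2 difference −0.04, SE 0.18, limma adjusted p = 0.855). With Rpl10a siRNA it measured 309.9 and 341.5 in light and 213.0 and 260.8 in heavy libraries (limma adjusted p = 0.0598).

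**Figure D4:**
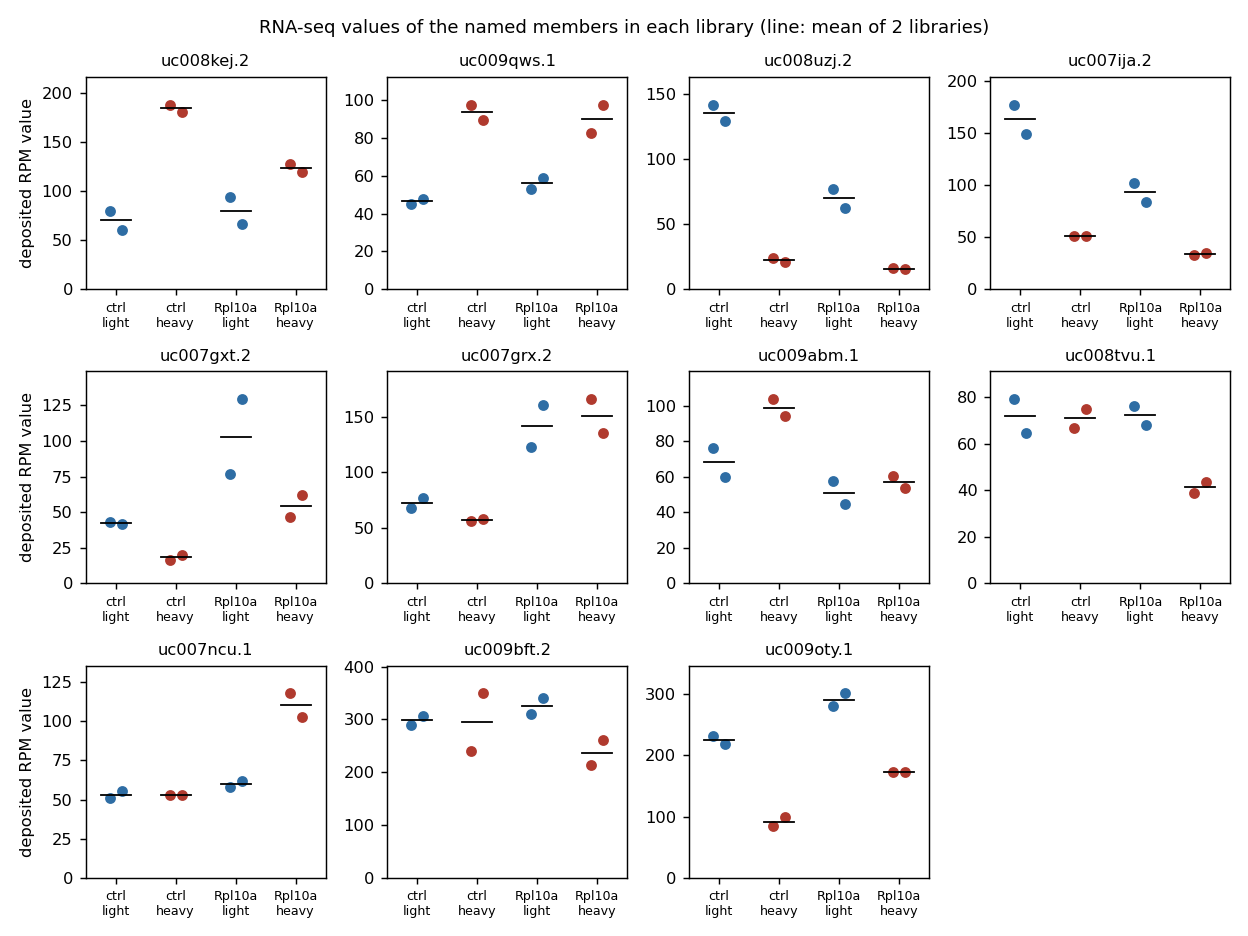
Deposited RPM values (linear y axes from 0) of the 11 named members in the 8 RNA-seq libraries: points are libraries, horizontal lines the mean of 2, blue the light and red the heavy pool. uc008uzj.2 and uc007ija.2 are higher in light than in heavy pools under both siRNAs, uc008kej.2 and uc009qws.1 the reverse.

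With Rpl10a siRNA, which shares no library with the control comparison, the members again leaned to the light pool. Of the 171, 78 were called light (45.6%) and 23 heavy (13.5%), against 22.1% and 31.6% of all transcripts, 53.7% in either direction (limma, adjusted p below 0.05). Their median difference was −0.43 against 0.16, and over the 4 pairs of libraries it ran from −0.46 to −0.32 against 0.11 to 0.22. The members' median value was 53.2 and 50.6 in the light and 42.9 and 39.5 in the heavy libraries. Of the members 62 were light under both siRNAs (36.3%, against 17.0% of all transcripts) and 8 were heavy under both (4.68% against 19.6%). Another 23 were called light with control siRNA and not called with Rpl10a siRNA (13.5% against 8.88%), and 16 the reverse (9.36% against 4.90%). Of the members 0 were called light with control and heavy with Rpl10a siRNA and 0 the reverse, against 39 and 11 of all 8084 transcripts (limma). At an unadjusted p below 0.05 with control siRNA 94 members were light and 9 heavy, against 2400 and 2457 of all 8084. With Rpl10a siRNA 86 and 29 were, against 1985 and 2866. Across the members the 2 differences correlated with Pearson r = 0.82 (Spearman rho 0.80), and across all 8084 transcripts with r = 0.80 (rho 0.77).

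The members were split in this position. With Rpl10a siRNA 85 had differences between −1 and −0.3 and 35 between 0.3 and 1, with 13 between −0.3 and 0 and 26 between 0 and 0.3. For all transcripts the weight lay the other way, with 1776 of 8084 between −1 and −0.3 and 3031 between 0.3 and 1.

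The next comparison asked how the members changed in each pool when Rpl10a was targeted. In the heavy pool more members rose than fell: 62 were called higher and 26 lower, that is 36.3% and 15.2%, against 26.8% and 22.7% of all 8084 transcripts, 49.5% in either direction (limma, adjusted p below 0.05). The median log2 change was 0.22 (quartiles −0.30 and 0.65) for members and 0.01 for all. Their share of the heavy libraries' totals was 0.890% and 0.885% with control and 1.28% and 1.06% with Rpl10a siRNA. By quintile of RNA-seq level from lowest to highest, the members' medians were 0.22, 0.27, −0.01, 0.23 and 0.25, and those of all transcripts 0.20, 0.11, 0.06, −0.08 and −0.32. The gap was widest in the highest quintile and had the opposite sign in the middle one. By footprints, the 124 members at 10 RPKM or more had a median of 0.30 and the 47 below it −0.09, against 0.00 and 0.04 for all such transcripts.

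This balance depended on scaling and on single libraries. With library medians aligned, which moved the median of all transcripts by −0.13, 47 members were higher and 43 lower against 20.9% and 30.6% of all, and with library totals, which moved it by 0.11, 68 and 15 against 30.4% and 15.4%. The members' median was 0.21 above that of all transcripts, a difference that scaling whole libraries leaves nearly the same by construction. Without the first Rpl10a heavy library that gap was 0.07, and 36 members were higher (21.1%, against 19.3% of all) and 7 lower (4.09% against 12.4%). Without the first control heavy library 37 were higher (21.6% against 21.1%) and 21 lower (12.3% against 16.8%), and without the second 29 (17.0% against 13.0%) and 3 (1.75% against 5.53%). The members' share of higher calls was thus near the background without either first heavy library. When members were chosen without the first RPL22 IP library the gap turned to −0.11, with 25 of 115 higher and 28 lower. Without the second they gave 166 of 472 higher and 60 lower, and without the second total library 104 of 283 and 55. Chosen without the first or second total library, the gap was 0.050 or 0.058. Size and direction in the heavy pool thus differed with the Rpl22-3xHA libraries used to choose the members.

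uc007gxt.2 rose most among the more abundant members, from 16.8 and 20.3 to 46.8 and 61.9 in the heavy pool (log2 change 1.49, SE 0.24, limma adjusted p = 0.00363). uc007grx.2 rose from 56.2 and 57.9 to 166.0 and 135.6 (log2 change 1.38, SE 0.16, limma adjusted p = 0.00194). Each library with Rpl10a siRNA lay above both controls for both transcripts. Their RPL22 ratios were −0.54 and −0.44, and that of uc007grx.2 came with an RPL10A ratio of −0.52, near the bound. uc009oty.1 rose from 84.4 and 99.1 to 172.6 and 172.5 (log2 change 0.91, SE 0.12, limma adjusted p = 0.00243), and its light libraries stood at 280.3 and 301.3. In the other direction uc009abm.1 fell from 103.8 and 94.0 to 60.5 and 53.6 (log2 change −0.78, SE 0.17, limma adjusted p = 0.00788), and uc008tvu.1 from 66.7 and 74.9 to 38.8 and 43.6 (log2 change −0.77, SE 0.14, limma adjusted p = 0.00498). In the light pool uc009abm.1 measured 76.4 and 60.1 with control and 57.9 and 44.5 with Rpl10a siRNA (limma adjusted p = 0.176), and uc008tvu.1 measured 79.1 and 64.4 and 76.3 and 68.0 (limma adjusted p = 0.969). uc008tvu.1 had one of the lower RPL22 ratios, −0.59, at 83.0 and 74.1 RPKM in total against 46.2 and 57.6 in the IP. Its RPS25 ratio, 0.47, was near the upper bound, at 61.8 and 82.3 against 104.7 and 95.1 RPKM.

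In the light pool few members changed: 3 were called higher and 6 lower (1.75% and 3.51%), against 2.51% and 3.61% of all transcripts, 6.12% in either direction (limma, adjusted p below 0.05), so the members' share was near the background. The median change was 0.03 for members and 0.02 for all. uc007gxt.2 rose here too, from 43.4 and 41.7 to 76.7 and 129.3 (log2 change 1.21, SE 0.24, limma adjusted p = 0.0351), as did uc007grx.2, from 67.6 and 77.1 to 122.6 and 161.0 (log2 change 0.95, SE 0.16, limma adjusted p = 0.0336). The 2 members named above as farthest on the light side fell: uc008uzj.2 from 141.6 and 128.8 to 77.2 and 62.3 (log2 change −0.95, SE 0.15, limma adjusted p = 0.0336), and uc007ija.2 from 177.5 and 149.7 to 102.0 and 84.4 (log2 change −0.81, SE 0.14, limma adjusted p = 0.0336). Both had been picked with the same control light libraries. The 85 members called light with control siRNA had a median change of 0.02 here, against −0.16 for all 2134 such transcripts. These sets too were picked with the control light libraries, so nothing is read from the difference. All 3 members higher in the light pool were also higher in the heavy pool, and 5 of the 6 lower ones were also lower there. This overlap was not counted over all transcripts, so it has no background and nothing is read from it. The light-pool calls depended on single libraries. Limma called 0 members when any of 5 libraries was left out, namely each of the 4 control libraries and replicate 2 of Rpl10a light, and it then called 0.0% of all transcripts too. The other fits without 1 library did call some members and some of all transcripts. Each fit without 1 library leaves 1 library in a group, so calls are not compared further. Without a control heavy library the log2 changes of the 4 named calls stayed the same, as those libraries are not part of this comparison. The members' median minus that of all transcripts ran from −0.021 to 0.048 over the fits without 1 library. At an unadjusted p below 0.05, with all libraries, 14 members were higher and 23 lower, against 1006 and 1081 of 8084. The 4 named calls had limma adjusted p-values from 0.0600 to 0.262 in those 5 fits.

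The polysome shift, heavy minus light with Rpl10a siRNA less the same with control siRNA, was called for 1 member of 171, toward the heavy side, and for 0 toward the light side (limma, adjusted p below 0.05). Over all transcripts 2.86% were called toward heavy and 3.57% toward light, 6.43% in all. At an unadjusted p below 0.05, 29 members shifted toward heavy and 4 toward light, against 1400 and 1062 of 8084. The count depended on whether replicate numbers pair the libraries, which the labels do not say. Same-numbered libraries deviated together, with correlations from 0.40 to 0.62. With replicate number as a block, limma called 28 members toward heavy and 4 toward light (16.4% and 2.34%, against 18.1% and 13.1% of all transcripts). The members' median shift was 0.22 (quartiles −0.12 and 0.45) and that of all transcripts 0.09, and 53 of 171 (31.0%) were below 0 against 43.8%. Aligning library medians moved the median of all transcripts by −0.11 and left the members' median at 0.11 against −0.02. The called member, uc007ncu.1, was level with control siRNA, at 50.9 and 55.5 in light and 53.0 and 53.2 in heavy libraries. With Rpl10a siRNA it stood at 58.3 and 62.0 in light and 118.0 and 102.9 in heavy libraries (log2 shift 0.86, SE 0.17, limma adjusted p = 0.0353). Its log2 change in the heavy pool was 1.04 (limma adjusted p = 0.00191) and in the light pool 0.17 (limma adjusted p = 0.404). The call was lost without a variance trend (limma adjusted p = 0.0511). It was lost as well (limma adjusted p from 0.0709 to 0.172) when 1 library was left out, unless that was replicate 2 of Rpl10a heavy. Those 7 fits called 0 members and 0.0% of all transcripts, and the fit without replicate 2 of Rpl10a heavy called 34 members (19.9%), 32 of them toward heavy (18.7%), against 25.6% and 14.9% of all transcripts. The footprints of uc007ncu.1 were 70.8 and 62.3 RPKM in the Rpl22-3xHA total and 47.1 and 52.9 in the IP.

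Transcripts just short of the threshold had medians closer to 0. Among transcripts within the same bounds on RPL10A and RPS25, the 39 with an RPL22 ratio at or below −0.5 had a median heavy-minus-light difference of −0.67 with control siRNA, the 132 between −0.5 and −0.4 had −0.45, the 358 between −0.4 and −0.3 had −0.19 and the 695 between −0.3 and −0.2 had −0.10. With Rpl10a siRNA the same bands stood at −0.58, −0.32, 0.18 and 0.24. The change in the heavy pool followed another order, with medians of −0.01, 0.27, 0.29 and 0.26. The 39 most depleted transcripts thus had the lowest heavy-minus-light medians of these 4 bands and a median change near 0 in the heavy pool. Their median RNA-seq level was 29.0 against 54.8 in the next band.

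At the opposite end, 135 transcripts within the same bounds had an RPL22 ratio at or above 0.4. They were balanced with control siRNA, with 44 called heavy and 34 light and a median of 0.02, and had a median of −0.11 with Rpl10a siRNA. In the heavy pool 14 of them rose and 61 fell with Rpl10a siRNA, with a median of −0.44 against 0.22 for the 171 depleted transcripts (limma, adjusted p below 0.05 for the calls). Their mean total footprint level in the Rpl22-3xHA line had a median of 41.5 RPKM, against 16.9. These sets were compared by counts and medians only, and the difference between them was not tested.

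**Figure D5:**
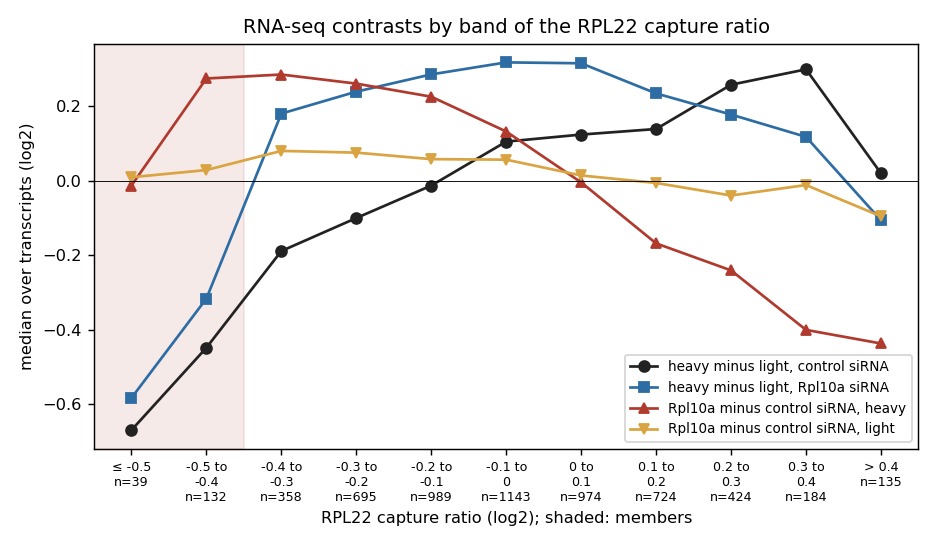
Median log2 value of 4 RNA-seq contrasts (y axis) over transcripts in bands of the RPL22 capture ratio (x axis, n per band below), all within the same bounds on RPL10A and RPS25; the shaded bands are the members. Heavy-minus-light medians are lowest in the shaded bands (−0.67 and −0.45 with control siRNA), while the change in the heavy pool runs from −0.01 and 0.27 there to −0.44 in the last band.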

How the data were processed

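Ribosome footprints (12 libraries) and RNA-seq of gradient pools (8 libraries) of mouse E14 cells were analysed by the groups in the sample titles. For Ribo-Seq the authors deposited RPKM per transcript, per the file headers. For RNA-seq they deposited values headed RPM, with totals between 943664 and 1067209, so the unit was taken as a signal on a library-wide scale. The submitters' processing notes name cutadapt, Bowtie2, STAR (Rpl22 and RNA-seq libraries) and mm10; their versions and any filters are not stated there. No counts were recovered, so no count test was run.

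Capture ratios were described without a test, as they chose the members. RNA-seq contrasts were fitted on log2(value + 1) in 1 limma 3.58.1 model (R 4.3.3) of the 8 libraries over all 8084 transcripts, with a variance trend and two-sided Benjamini-Hochberg adjusted p-values. This scale understates changes of low transcripts. The script was tested on simulated data. Named members were, per comparison and direction, the 2 called members with the largest difference, no overlap between groups and a mean level at or above the members' median, plus the 2 with the lowest RPL22 ratio among well-footprinted ones. Members, bounds and comparisons were chosen with earlier results of these data known. Replicates shared at most 1.53% identical values.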

Additional observations from a re-analysis of the deposited data

Results flagged for a closer look

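The effect of Rpl10a siRNA differed between heavy and light pools for uc007ncu.1 by the interaction term (log2 shift 0.8647, limma adjusted p = 0.0353). This call was lost without a variance trend (limma adjusted p = 0.0511) and, as described above, depended on single libraries. Groups of 2 libraries allow no test for a sample far from the others.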

How the results depend on the processing

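The members' lean to the light pool with control siRNA, with 85 light and 9 heavy calls, kept its direction in the alternatives run. The members' median minus that of all, −0.43, was −0.29 or −0.25 with members chosen without the first or second RPL22 IP library, −0.24 without the second total library, −0.26 at a threshold of −0.3, −0.63 at −0.5 and −0.30 with a rule pseudocount of 5. Without single RNA-seq libraries this median difference ranged from −0.45 to −0.40. Other rules for the members gave 283 of 529 (RPL22 ratio at or below −0.3), 24 of 39 (at or below −0.5) and 22 of 47 (pseudocount 5 in the rule). Rules without 1 Rpl22-line library, added after seeing the data like the rule pseudocounts, gave 57 to 263 of 115 to 472. For Rpl10a siRNA in the heavy pool 88 members were called (51.5%, against 49.5% of all transcripts). The thresholds of −0.3 and −0.5 and the rule pseudocount of 5 gave 278 (52.6%), 19 (48.7%) and 27 (57.4%). Centred ratios gave 58 of 117 (49.6%), and rules without 1 Rpl22-line library gave 53 to 226 (43.8% to 56.2%). Calls without single RNA-seq libraries changed together with those of all transcripts, so median differences are given for them. The median difference of 0.21 ranged from 0.067 to 0.26 without single RNA-seq libraries and reversed to −0.025 at −0.5 and to −0.11 without the first RPL22 IP library, and it was 0.050 or 0.058 without the first or second total library.

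For Rpl10a siRNA in the light pool 9 members were called (5.26%, against 6.12% of all transcripts). The same thresholds and rule pseudocount gave 28 (5.29%), 2 (5.13%) and 1 (2.13%), and centred ratios gave 5 (4.27%). Rules without 1 Rpl22-line library gave 6 to 20 (3.1% to 7.8%). The median difference of 0.01 reversed to −0.0054 at −0.5, to −0.0021 with centred ratios and to −0.017 without the first RPL22 IP library, and was 0.077 with a rule pseudocount of 5. It ranged from −0.021 to 0.048 without single RNA-seq libraries, reversing without replicate 2 of control light. For the shift (1 call) the rules gave 21, 0, 0 and, with centred ratios, 0, and a rule pseudocount of 0.5 gave 3. Aligned medians gave 2 and no variance trend 0; leaving out RNA-seq libraries gave 0 to 34 and rules without 1 Rpl22-line library 0 to 16. The shift's median difference of 0.13 ranged from 0.045 to 0.17 without single RNA-seq libraries and reversed to −0.033 when members were chosen without the first RPL22 IP library. It was 0.053 when they were chosen without the first total library, 0.051 without replicate 1 of control light and 0.045 without replicate 1 of Rpl10a heavy. The cause of these changes was not tested.

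Same-numbered RNA-seq libraries deviated together, with correlations from 0.40 to 0.62, but the labels give the numbers no meaning such as a shared day or culture, so the numbers were not taken to pair samples. A replicate block gave 37 calls in the light pool (21.6%, against 23.7% of all transcripts). It gave 32 shifts (18.7% against 31.2%), 28 toward heavy (16.4% against 18.1%) and 4 toward light (2.34% against 13.1%). A block within siRNA gave 44 shifts (25.7% against 36.9%), 40 toward heavy (23.4% against 22.3%) and 4 toward light (2.34% against 14.6%). A replicate block gave 110 calls for heavy against light with control siRNA (64.3%, against 66.4% of all transcripts). Of these, 100 were light (58.5% against 33.9%) and 10 heavy (5.85% against 32.5%). In the heavy pool it gave 71 higher (41.5% against 34.1%) and 43 lower (25.1% against 30.9%). The block within siRNA was not used for the change in a single pool, because there the 2 siRNAs lie in different blocks.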
